A study of Homo sapiens with 8 samples.

Results

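The 4 human HOX gene clusters, HOXA, HOXB, HOXC and HOXD, were examined for 2 Polycomb histone marks in HAP1 cells with and without RING1A and RING1B. A region was taken as part of a cluster when it overlapped one of 4 hg19 windows: HOXA on chromosome 7 from 27.12 to 27.25 Mb, HOXB on chromosome 17 from 46.60 to 46.81 Mb, HOXC on chromosome 12 from 54.32 to 54.47 Mb and HOXD on chromosome 2 from 176.94 to 177.06 Mb. This gave 15 of the 34703 regions in the table, with 1 in HOXA, 4 in HOXB, 4 in HOXC and 6 in HOXD. Position alone decided membership, though the windows themselves were chosen with earlier results of these data known. They are numbered here along the chromosome within each cluster. Another 52 regions lay within 500 kb of a window and served as flanks, 13 around HOXA, 14 around HOXB, 13 around HOXC and 12 around HOXD.

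HAP1 is a near-haploid line derived from KBM-7, a chronic myeloid leukaemia line. Chromatin immunoprecipitation with sequencing (ChIP-seq) of H2AK119ub and of H3K27me3 was carried out on 2 libraries each from unedited wild-type cells and from RING1A/B double-knockout cells. The double knockout was made by removing RING1B with CRISPR-Cas9 from HAP1 cells that already lacked RING1A, and clones from sorted single cells were screened by immunoblot. The sources used here do not state the number of clones, so each p-value reflects the spread of these libraries rather than of independent clones. The sample labels name an Active Motif antibody for H3K27me3 and the written protocol a Cell Signaling one, and which was used is not known.

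HOX genes encode homeodomain transcription factors that set position along the body axis and in the limbs. Genes toward the HOX1 end of a cluster are switched on earlier and act more anteriorly, and genes toward the HOX13 end act later and more posteriorly. The silent clusters are the classic targets of the Polycomb system. Polycomb repressive complex 1 (PRC1), through its ligases RING1A and RING1B, adds one ubiquitin to a lysine of histone H2A (H2AK119ub), and Polycomb repressive complex 2 (PRC2) trimethylates a lysine of histone H3 (H3K27me3). Each mark can help recruit the complex that writes the other, and both complexes favour CpG-rich promoters.

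The promoters at the cluster ends are shown for this sequence context. All 38 HOX genes considered were found in the RefSeq gene table (build GRCh38.p14), and 20 of them had a promoter entry, which gave 26 different windows of 250 bases upstream of a transcription start. HOXB1 and HOXC4 were the only genes of their clusters with an entry. Several windows belong to HOXA3, so the values that follow describe mainly HOXA and HOXD. The letters CG, which read the same on both strands, occurred a median of 19.5 times in the 26 windows, against 11 times over 34943 windows of all genes. At least 10 CG were present in 20 of the 26 HOX windows (76.9%), compared with 52.1% of all windows. At least 1 CG was present in 96.2% of HOX windows and 93.9% of all windows, and the median GC content was 58.8% against 58.0%. The windows listed for the gene at each end of a cluster are printed 5′ to 3′ on the gene's own strand, with every CG in capitals. They are those of HOXA2, a hindbrain and pharyngeal arch gene (chr7:27102684-27102933, minus strand, 8 CG), HOXA13, a gene of the distal limb and urogenital tract (chr7:27200092-27200341, minus strand, 40 CG), HOXB1, a hindbrain gene (chr17:48531012-48531261, minus strand, 7 CG), HOXC4, the HOX4 paralogue of its cluster (chr12:54016638-54016887, plus strand, 14 CG), HOXD1, the HOX1 paralogue of its cluster (chr2:176188418-176188667, plus strand, 31 CG), and HOXD13, a digit-patterning gene (chr2:176092471-176092720, plus strand, 21 CG). The other end genes are HOXB13 and HOXC13.
HOXA2: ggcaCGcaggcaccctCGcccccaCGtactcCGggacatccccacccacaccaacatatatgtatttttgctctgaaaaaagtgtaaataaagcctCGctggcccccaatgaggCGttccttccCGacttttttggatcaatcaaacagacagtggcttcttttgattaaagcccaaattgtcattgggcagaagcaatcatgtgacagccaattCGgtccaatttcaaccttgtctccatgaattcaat
HOXA13: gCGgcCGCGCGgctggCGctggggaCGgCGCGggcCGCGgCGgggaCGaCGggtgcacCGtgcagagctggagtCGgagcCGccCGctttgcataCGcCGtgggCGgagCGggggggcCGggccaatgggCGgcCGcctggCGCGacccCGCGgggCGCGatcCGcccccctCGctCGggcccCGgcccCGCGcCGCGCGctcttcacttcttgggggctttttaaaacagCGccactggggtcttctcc
HOXB1: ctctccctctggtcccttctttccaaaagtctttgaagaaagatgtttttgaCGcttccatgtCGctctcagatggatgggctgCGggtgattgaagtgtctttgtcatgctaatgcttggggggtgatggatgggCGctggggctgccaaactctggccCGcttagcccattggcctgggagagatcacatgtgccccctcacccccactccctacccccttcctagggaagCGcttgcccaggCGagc
HOXC4: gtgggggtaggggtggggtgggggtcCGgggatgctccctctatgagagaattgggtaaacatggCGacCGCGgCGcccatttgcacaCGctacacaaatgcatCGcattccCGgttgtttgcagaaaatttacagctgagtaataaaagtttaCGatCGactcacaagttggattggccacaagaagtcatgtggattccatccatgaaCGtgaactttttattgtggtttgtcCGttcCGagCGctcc
HOXD1: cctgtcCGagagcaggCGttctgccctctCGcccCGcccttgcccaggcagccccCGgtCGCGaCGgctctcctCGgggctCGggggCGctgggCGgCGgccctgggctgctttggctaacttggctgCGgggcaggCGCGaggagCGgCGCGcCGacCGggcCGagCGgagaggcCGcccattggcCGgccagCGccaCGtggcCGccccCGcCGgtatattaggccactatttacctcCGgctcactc
HOXD13: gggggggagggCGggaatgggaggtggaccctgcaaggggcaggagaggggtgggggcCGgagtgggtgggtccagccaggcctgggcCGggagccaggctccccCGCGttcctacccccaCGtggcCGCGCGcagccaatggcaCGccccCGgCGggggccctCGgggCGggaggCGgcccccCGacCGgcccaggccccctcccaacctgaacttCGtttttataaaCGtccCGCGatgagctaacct
The HOXA13 window held the most CG of the 26 and a HOXA3 window the fewest, with 0. The ChIP-seq regions are on hg19 and the promoters on GRCh38.p14, so no region was placed on a single gene. Only the order of genes is used below: positions increase from HOXA2 to HOXA13, from HOXB1 to HOXB13, from HOXC13 to HOXC4 and from HOXD13 to HOXD1. In this table HOXC4, HOXC5 and HOXC6 begin at the same position and HOXC4 reaches farthest, so the HOXC4 window printed above lies at a start that the 3 genes share and not at the outer edge of the cluster.

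The listed regions covered the 4 windows unevenly. The only HOXA region covered 5.8 kb of the 130 kb window (4.46%), which left 121.6 kb from 27120001 to 27241600 with no listed region. The HOXB regions covered 43.6% of their window, the HOXC regions 44% and the HOXD regions 29.3%, with longest gaps of 53.4, 59.2 and 35.8 kb. Sequence with no listed region has no value here, so neither mark can be described there. Of the 15 regions, 12 lay with at least 50% of their length inside a window and are called core regions here. The other 3, the edge regions, were HOXB region 1 (369.2 kb, 2.60% inside), HOXC region 1 (208.8 kb) and HOXD region 1 (30.8 kb), which lie mostly beyond their windows.

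In wild-type cells the HOX regions carried both marks densely, and H2AK119ub stood out more than H3K27me3. Density is given as normalized count per kb of region, with percentiles over all 34703 regions. Wild-type H2AK119ub density lay between percentiles 71.7 and 99.4 (median 97.2) and H3K27me3 density between percentiles 62.1 and 99.4 (median 87.4). For H2AK119ub 11 of 15 HOX regions were above the 90th percentile, against 15 of 52 flank regions. For H3K27me3 these counts were 7 of 15 and 16 of 52. The densest regions were HOXB region 2, with 14.2 per kb of H2AK119ub and 11.5 of H3K27me3, and HOXC region 4, with 12.8 and 14. The ratio of H2AK119ub to H3K27me3 density exceeded the median of all regions, 0.714, in 11 of 15 HOX regions, including 10 of the 12 core regions.

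**Figure D1:**
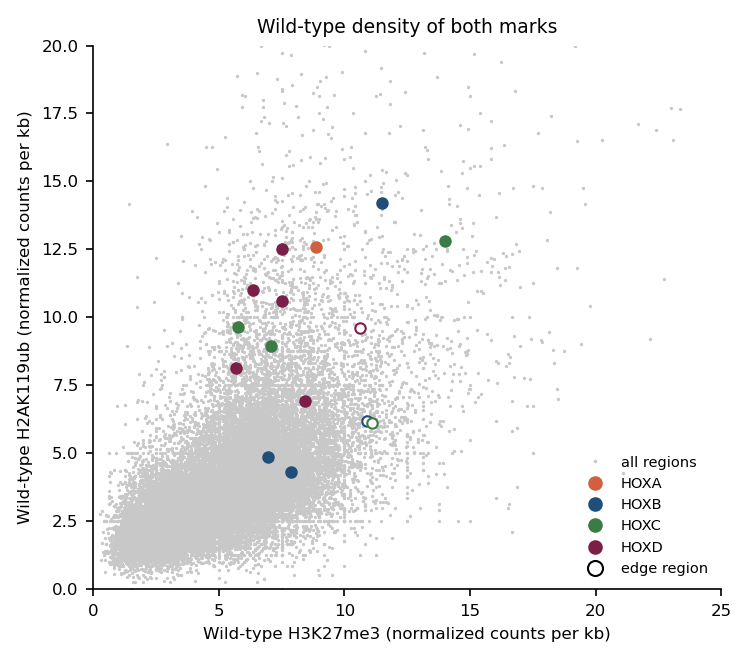
Wild-type H3K27me3 density (horizontal) against wild-type H2AK119ub density (vertical), both as normalized counts per kb and means of 2 libraries, for all regions (grey, 47 outside the axes) and the 15 HOX regions (coloured by cluster, open for the 3 edge regions). HOXB region 2 and HOXC region 4 are the 2 HOX points at the upper right. The other HOX points lie lower for both marks, and most rank higher among all regions for H2AK119ub than for H3K27me3.

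The difference between the marks also appeared against the neighbourhood of each cluster. Using the core regions, a choice made after the values were seen, wild-type H2AK119ub density in the cluster relative to its flanks was higher by 1.32 and 0.71 on the log2 scale in the 2 libraries for HOXA, by 1.04 and 0.81 for HOXB, by 0.81 and 0.86 for HOXC and by 0.70 and 0.51 for HOXD. The H3K27me3 ratios were -0.17 and 0.22, 0.11 and 0.06, 0.11 and 0.27, and -0.41 and -0.25 in the same order. In each cluster both H2AK119ub ratios thus lay above both H3K27me3 ratios, by 0.99, 0.84, 0.65 and 0.94 on average (exact two-sided permutation p = 0.33 each, the smallest that 2 against 2 libraries allow). With the 3 edge regions counted as cluster the difference was 0.64 in HOXD and turned to -0.23 in HOXB and -0.17 in HOXC.

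The first question was whether the HOX regions lost the PRC1 mark in cells without its ligases. H2AK119ub fell in all 15, and 7 were listed at 0 in both double-knockout libraries, against 18968 of all 34703 regions (54.7%). In HOXB region 2 the normalized counts went from 815 and 852 to 1 and 2 (limma with Benjamini-Hochberg adjustment over 23700 tested regions, adjusted p = 0.000245). HOXC region 4 had 473 and 544 in wild type and was listed at 0 in both double-knockout libraries (adjusted p = 0.000207). Over all 34703 regions, 34452 had both double-knockout values below both wild-type values, as did all 15 HOX regions. No double-knockout value of these 15 came near a wild-type one. The highest double-knockout values were in the large edge regions, with 8 and 22 in HOXB region 1 against 1996 and 2568 in wild type, and 11 and 6 in HOXC region 1 against 1198 and 1359.

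The loss in HOX regions went with a loss over the whole table, where limma called 23699 of 23700 tested regions lower (100%) and 0 higher, also 0 at an unadjusted p under 0.05. The 15 of 15 HOX calls are therefore at the background. The median log2 change was -5.42 in the HOX regions and -4.74 in all tested regions, values that follow the wild-type level because the double-knockout values are at or near 0. All 15 passed the filter on low values through their wild-type libraries alone. With wild-type replicate 1 or 2 left out 7 HOX regions were called, against 52.3% and 52.2% of all tested regions, and with the libraries scaled to equal totals 8 were, against 42.9%. These shares are again close to the background.

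**Figure D2:**
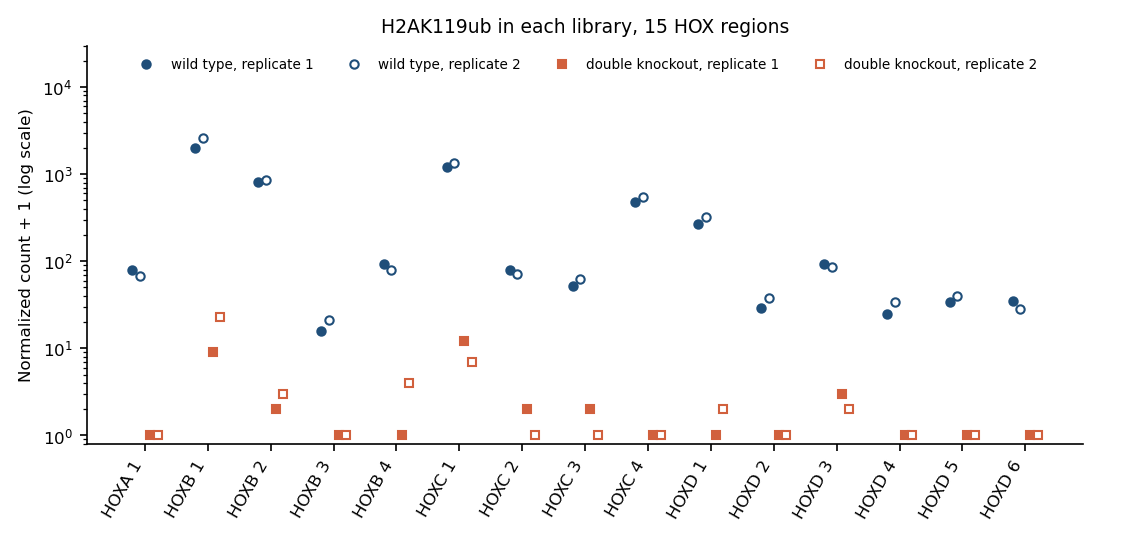
H2AK119ub in each of the 4 libraries for the 15 HOX regions, as normalized count + 1 on a log axis (circles wild type, squares double knockout). In every region both squares lie below both circles, as in 34452 of all 34703 regions. A square at the bottom stands for a value listed at 0.

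By summed counts, 0.559% of wild-type H2AK119ub was left in HOXB (range over the 4 pairs of libraries 0.256 to 0.925%), 0.495% in HOXC (0.295 to 0.722%) and 0.391% in HOXD (0.369 to 0.416%). HOXA was listed at 0 in both double-knockout libraries, against 79 and 67 in wild type. The share left over all regions was 1.11%. With core regions alone HOXC had 0.156% and HOXD 0.696%, the opposite order. With the libraries scaled to equal totals the shares were 48.5% in HOXB, 46.8% in HOXC and 35.6% in HOXD, so their size rests on the authors' normalization. That scaling removes any loss over the whole table by construction, so these shares only compare the clusters with the table. The exact permutation p was 0.33 for each cluster, again the smallest possible.

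The second question was what became of the PRC2 mark. H3K27me3 fell in 13 of the 15 HOX regions and rose in 0, while HOXB region 4 and HOXC region 1 were not called (limma with Benjamini-Hochberg adjustment over 32209 tested regions, threshold 0.05). Of all tested regions 22.8% were called lower and 47.3% higher, and with the libraries scaled to equal totals there were 10907 lower and 9614 higher calls, against 7338 and 15228 as deposited. The HOX share called lower was 86.7%, with a median log2 change of -1.58 (double knockout minus wild type, log2 of normalized count + 1), and the median of all tested regions was 0.58. The flanks lay between, with 29 of 51 tested regions lower (56.9%), 10 higher and a median of -1.35. Restricting the HOX regions to the core regions gave 11 of 12 lower and a median of -1.65. In 14 of the 15 both double-knockout values were below both wild-type values, and in HOXC region 1 they were above both. Over all 34703 regions, 10218 were below in this way and 18511 above. In 7 regions, HOXA 1, HOXB 3, HOXC 3 and HOXD 2, 4, 5 and 6, fewer than 2 double-knockout libraries reached the minimum of 10, so these passed the filter on low values through wild type, which favours a lower call. Of the other 8, 6 were called lower, and with no filter the count stayed at 13.

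These calls lean on the replicates: without double-knockout replicate 1, and likewise without replicate 2, 7 HOX regions were called lower (13.2% and 12.7% of all tested regions), and with either wild-type replicate left out no region of the whole table was called. Scaling the libraries to equal totals moved the median of all tested regions from 0.58 to 0.06, kept the 13 calls and added HOXB region 4 and HOXC region 1, so that 15 were called lower, against 33.9% of all regions.

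**Figure D3:**
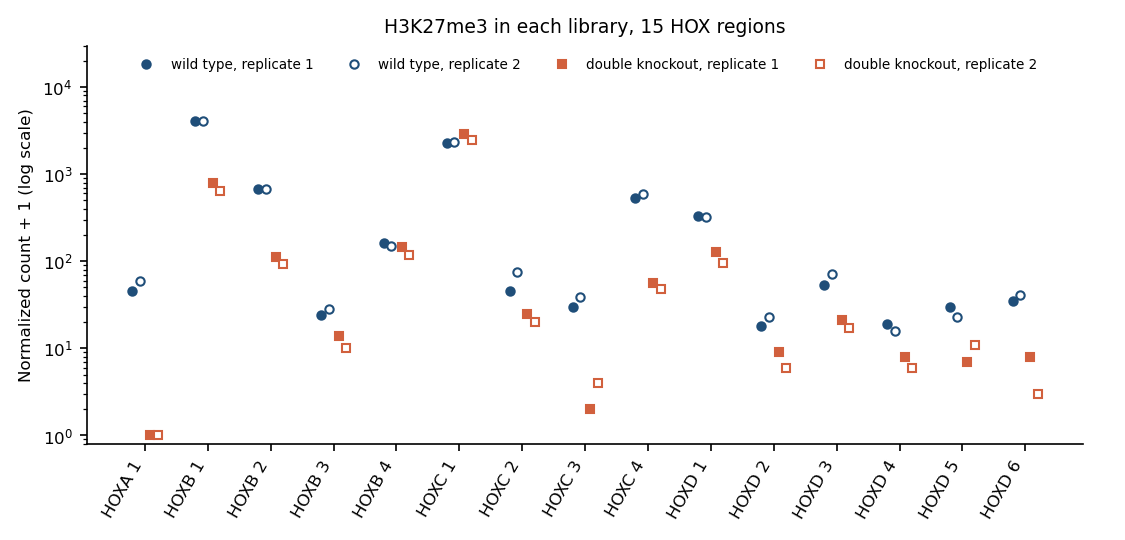
H3K27me3 in each of the 4 libraries for the 15 HOX regions, as normalized count + 1 on a log axis (circles wild type, squares double knockout). On the deposited scale the squares lie below the circles in every region but HOXC 1, whose direction turned with the libraries scaled to equal totals, and reach the bottom of the axis, a value of 0, in HOXA 1.

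The HOXA region lost all listed H3K27me3. It spans chr7:27241601-27247400 on hg19, at the edge of the window where HOXA13 and then EVX1, another homeobox gene, lie. H3K27me3 was at normalized counts of 44 and 59 in wild type and was listed at 0 in both double-knockout libraries (limma adjusted p = 3.83e-13). Of 11026 regions with at least as high a wild-type mean (51.5), this was the only one listed at 0 in both. Table-wide, 62 regions were at 0 in both, and none of them had a higher wild-type mean.

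The HOXA flanks fell as well, though not to 0. Of 12 tested regions 11 were lower, 0 were higher and 1 was not called. The nearest region beyond the HOXA13 side, chr7:27265201-27268000, had 16 and 20 in wild type and 2 and 5 in the double knockout (log2 change -2.15). The largest fall in the flanks, in chr7:27352801-27355400, was from 16 and 18 to 1 and 1 (log2 change -3.17, limma adjusted p = 5.19e-05). The nearest region on the HOXA2 side, chr7:26933001-26935000, had 15 and 9 against 4 and 2 and was too low to be tested. Summed over the flanks, 24.0% of wild-type H3K27me3 was left (range over pairs 21.4 to 26.8%).

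In HOXB the share of H3K27me3 left was lower in the 2 regions toward HOXB1 than in the 2 toward HOXB13. HOXB region 1 (chr17:46240401-46609600) enters the window from the HOXB1 side, where CBX1, SNX11 and the T-cell adaptor gene SKAP1 precede the cluster in gene order. It had 4033 and 4030 in wild type and 800 and 640 in the double knockout. That left 17.9%, a log2 change of -2.49 ± 0.14 (SE; limma adjusted p = 8.12e-30). HOXB region 2 (chr17:46663001-46721600), the largest region wholly inside a window, went from 677 and 667 to 111 and 93. That left 15.2%, a log2 change of -2.71 ± 0.17 (SE; limma adjusted p = 1.97e-28).

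Farther along, HOXB region 3 (chr17:46758801-46762400) went from 23 and 27 to 13 and 9, with 44% left (log2 change -1.13 ± 0.42 SE, limma adjusted p = 0.0141). HOXB region 4 (chr17:46770601-46790400), the last before the HOXB13 edge of the window, was not called. It had 162 and 150 in wild type and 143 and 117 in the double knockout, or 83.3% left (log2 change -0.27 ± 0.19 SE, limma adjusted p = 0.190). Its libraries did not overlap but lay close, and the fall was called when the libraries were scaled to equal totals (log2 change -0.79). H2AK119ub in the same region went from 92 and 78 to 0 and 3 (limma adjusted p = 0.00674), or 1.76% left.

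The HOXB flanks were mixed, with 5 regions lower, 5 higher and 4 not called of 14. All 5 rises lay beyond HOXB13, on the side of TTLL6 and CALCOCO2, where 3 of 11 regions fell. The region just outside the HOXB13 edge, chr17:46810201-46842400, went from 433 and 481 to 151 and 157 (log2 change -1.56, limma adjusted p = 1.90e-14). The region before HOXB region 1, chr17:46214401-46233600, had the largest fall, from 284 and 267 to 48 and 25 (log2 change -2.95 ± 0.21 SE). The largest rise, in chr17:47150601-47156000, was from 13 and 10 to 32 and 45 (log2 change 1.65 ± 0.38 SE, limma adjusted p = 9.38e-05).

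Counting every overlapping region, HOXC held the widest contrast, through HOXC region 1, of which only 5.75% is inside the window. Among core regions the share left ran wider in HOXB, from 15.2% to 83.3%, than in HOXC, from 5.97% to 36.1%. HOXC region 4 (chr12:54428001-54467800), at the HOXC4 side, went from 526 and 588 normalized counts of H3K27me3 to 56 and 47. That left 9.25%, a 10.8-fold fall (log2 change -3.41 ± 0.18 SE, limma adjusted p = 4.12e-33). HOXC region 1 (chr12:54123201-54332000), which enters the window from the HOXC13 side, had 2277 and 2348 in wild type and 2858 and 2484 in the double knockout. Both double-knockout values were above both wild-type values, but the change was not called (log2 change 0.20 ± 0.14 SE, limma adjusted p = 0.194), and it turned to -0.32, called lower, with the libraries scaled to equal totals.

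The 2 regions between them fell. HOXC region 2 (chr12:54347601-54356000) went from 44 and 75 to 24 and 19, with 36.1% left (log2 change -1.39 ± 0.30 SE, limma adjusted p = 4.44e-05). HOXC region 3 (chr12:54363001-54368800) went from 29 and 38 to 1 and 3, with 5.97% left (log2 change -3.60 ± 0.56 SE, limma adjusted p = 2.48e-08). Over the HOXC core regions the share of H3K27me3 left thus ran from 5.97% in HOXC region 3 to 36.1% in HOXC region 2. HOXC region 1, which lies mostly outside the window, stood at 116% on the deposited scale. H2AK119ub fell in all 4 HOXC regions, to at most 11 in any double-knockout library.

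On the HOXC13 side, toward CALCOCO1, neither of the 2 flank regions was called, and the nearest, chr12:54082601-54106800, went from 258 and 278 to 239 and 222 (log2 change -0.22, limma adjusted p = 0.234). On the HOXC4 side, where SMUG1, CBX5, HNRNPA1 and NFE2 follow, 7 of 11 regions were lower and 2 higher. The nearest there, chr12:54520001-54554000, went from 395 and 443 to 125 and 107 (log2 change -1.85). The largest fall, in chr12:54565401-54572800, was from 79 and 81 to 10 and 10 (log2 change -2.88, limma adjusted p = 4.64e-13). The largest rise, in chr12:54868001-54881000, was from 107 and 75 to 138 and 109 (log2 change 0.45, limma adjusted p = 0.0441). It was smaller than the median change of all tested regions on the deposited scale, 0.58.

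HOXD fell throughout, in 6 of 6 regions, with between 12.2% and 36.4% of H3K27me3 left. HOXD region 1 (chr2:176920601-176951400), at the HOXD13 side, where EVX2, also a homeobox gene, precedes the cluster in gene order, went from 332 and 321 to 127 and 94. That left 33.8% (log2 change -1.57 ± 0.18 SE, limma adjusted p = 3.44e-13). HOXD region 6 (chr2:177054001-177058400), at the HOXD1 side, went from 34 and 40 to 7 and 2. That left 12.2% (log2 change -2.95 ± 0.48 SE, limma adjusted p = 1.07e-07).

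The 4 regions between had lower counts. HOXD region 2 (chr2:176970201-176972800) went from 17 and 22 to 8 and 5, and HOXD region 3 (chr2:176981201-176992000) from 53 and 70 to 20 and 16. HOXD region 4 (chr2:177027801-177030400) went from 18 and 15 to 7 and 5, and HOXD region 5 (chr2:177043401-177046800) from 29 and 22 to 6 and 10. Over all 34703 regions, 10218 had both double-knockout values below both wild-type values, and so did these 4. Their log2 changes were -1.47, -1.71, -1.33 and -1.58 (limma adjusted p = 0.00737, 1.00e-06, 0.0203 and 0.00152), and none of the 4 was called once either double-knockout library was left out.

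The HOXD flanks differed by side. Below the HOXD13 side, toward LNPK, 0 of 4 regions fell and 3 rose, and above the HOXD1 side, toward the mitochondrial gene MTX2, 6 of 8 fell and 0 rose. The nearest region on the HOXD13 side, chr2:176770801-176776600, went from 17 and 10 up to 35 and 25 (log2 change 1.12, limma adjusted p = 0.00893), and the largest rise, in chr2:176580001-176581200, was from 5 and 5 to 18 and 12 (log2 change 1.39, limma adjusted p = 0.0225). The nearest on the HOXD1 side, chr2:177238601-177241400, had 15 and 12 against 21 and 17 and was not called (log2 change 0.46, limma adjusted p = 0.325). The largest fall, in chr2:177319601-177434600, was from 1223 and 1239 to 192 and 126 (log2 change -2.98 ± 0.16 SE, limma adjusted p = 1.46e-32).

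**Figure D4:**
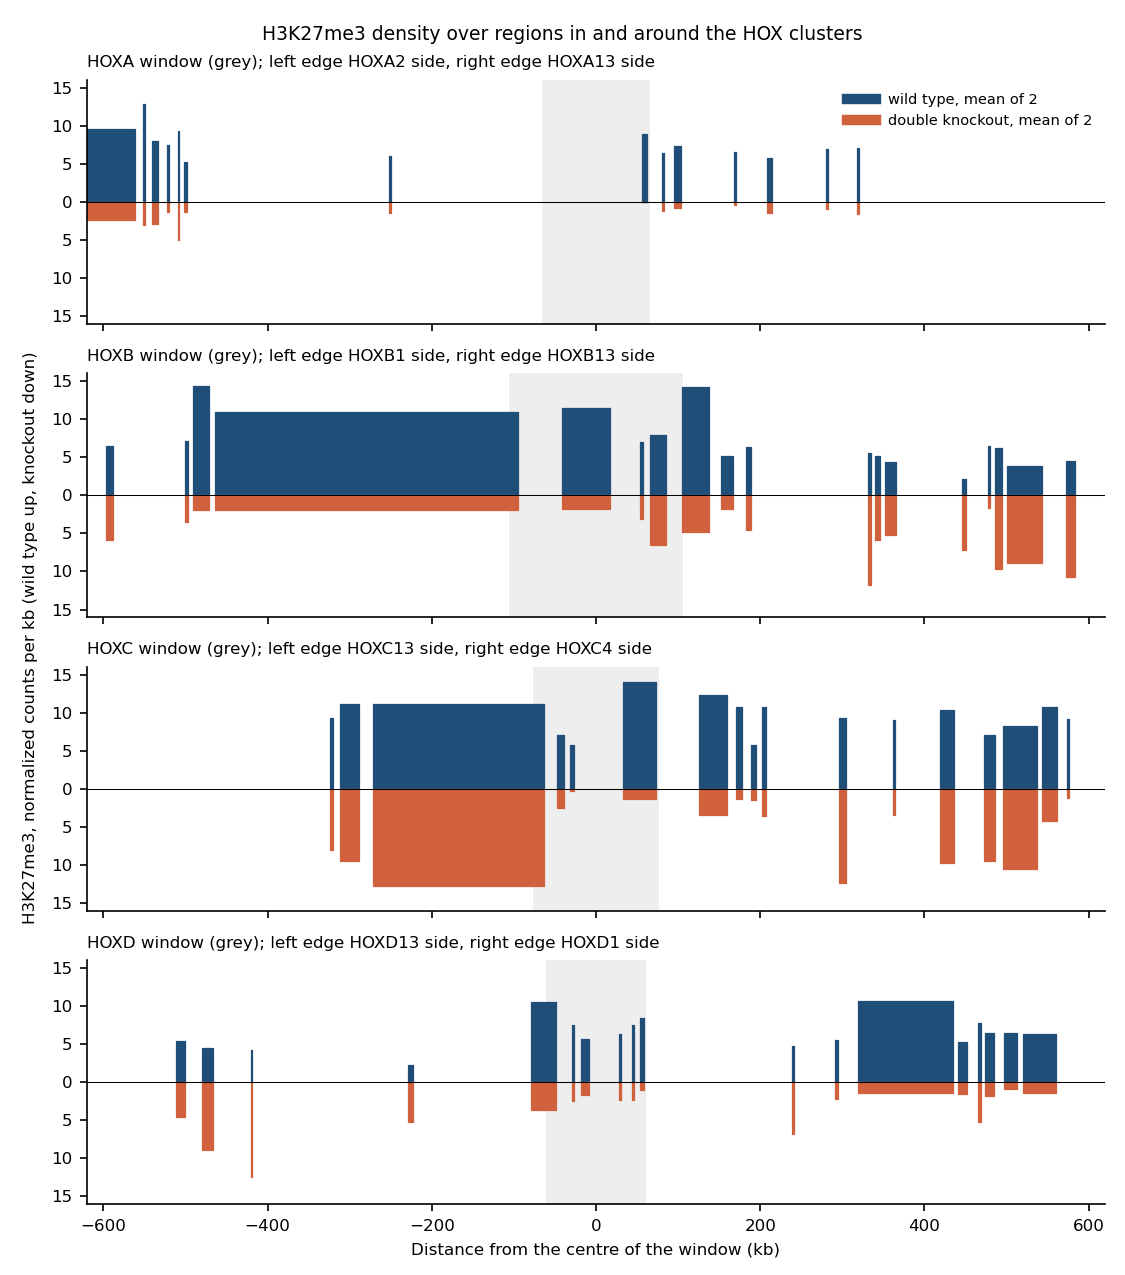
H3K27me3 in normalized counts per kb (vertical, wild-type mean upward in blue, double-knockout mean downward in orange) over the regions of each HOX window (grey) and its surroundings, against distance from the centre of the window in kb. Within the windows the orange bars are shorter than the blue bars, nearly equal in the last HOXB region, except in the broad region entering HOXC from the HOXC13 side, which turned lower with equal library totals, while large stretches of every window, most of HOXA, hold no region.

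**Figure D5:**
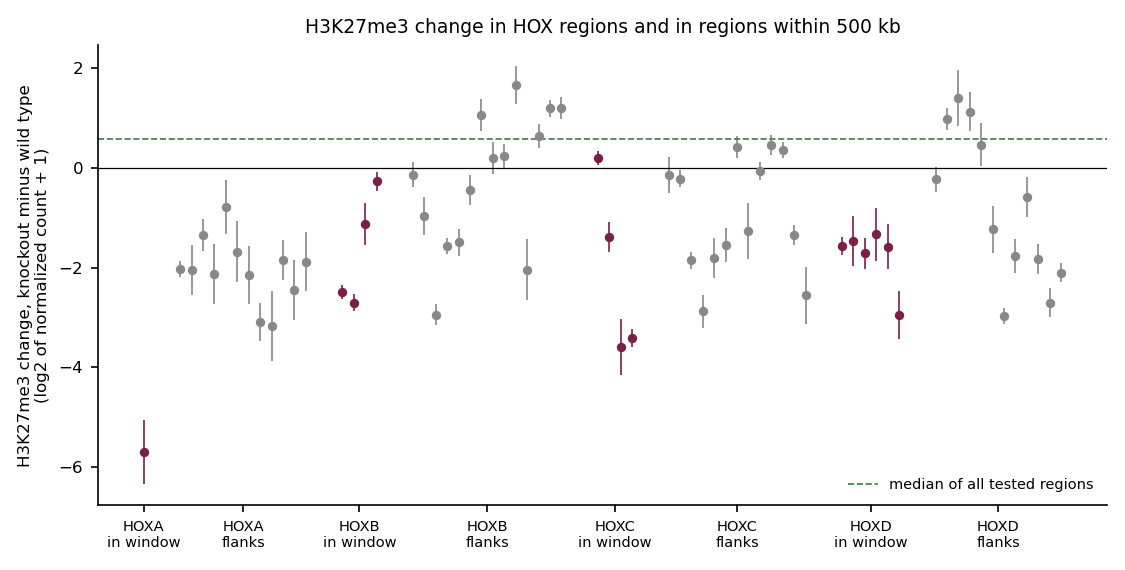
Log2 change of H3K27me3, double knockout minus wild type, with its standard error (vertical lines) for the 15 HOX regions (purple) and the 51 tested flank regions (grey), in chromosome order within each set. The dashed line is the median of all tested regions, 0.58, and every HOX point lies below it. The HOXA point rests on values of 0 and its height depends on the added 1.

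Whether a cluster changed more than its neighbourhood was asked within each library, which does not depend on scaling between libraries, by dividing the H3K27me3 density of the cluster by that of its flanks. The answer depended on the 3 edge regions and on the flank width, so both ways of counting are given. With the core regions, the log2 ratio for HOXC was 0.11 and 0.27 in wild type and -2.87 and -2.90 in the double knockout, a difference of -3.07. For HOXB it went from 0.11 and 0.06 to -0.13 and -0.18, a difference of -0.24. In both clusters the genotypes did not overlap (exact permutation p = 0.33 each, the smallest possible). For HOXD the ratios were -0.41 and -0.25 in wild type and -0.47 and -0.35 in the double knockout, a difference of -0.07 with overlapping libraries (exact permutation p = 0.667). HOXA has no ratio, since its double-knockout values are at 0.

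With every overlapping region counted as cluster, the differences were -2.04 for HOXB, 0.33 for HOXC and 0.20 for HOXD (exact permutation p = 0.33 each). The HOXB and HOXC values turn on HOXB region 1 and HOXC region 1, which then count as cluster and otherwise as flank. Flank width mattered too: with flanks of 250 and 1000 kb the differences were 0.81 and -0.27 for HOXC, -1.95 and -0.15 for HOXD, and -1.41 and -2.27 for HOXB. The direction for HOXC and HOXD therefore changed with the rule and with the flank width, and the 2-against-2 design cannot reach a p under 0.05 for either.

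The share of H3K27me3 left in each cluster shows the same dependence. Counting core regions, 28.5% was left in HOXB (range over pairs 25.4 to 31.6%), 11.5% in HOXC (9.84 to 13.5%) and 26.9% in HOXD (22.5 to 31.8%). HOXC then had the lowest share of the 3, and HOXB and HOXD overlapped. Counting every overlapping region, the shares were 19.7% in HOXB (17.5 to 21.9%), 92.7% in HOXC (83.7 to 102%) and 31.6% in HOXD (26.9 to 36.2%). Over the whole table the H3K27me3 total of the double knockout was 145% of wild type.

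Between clusters, 3 of the 6 pairs could be compared, since HOXA was at 0. Counting core regions, the within-library log2 ratio of HOXC to HOXD density changed by -1.21, from 0.81 and 0.87 to -0.43 and -0.32, and that of HOXB to HOXC by 1.30, from -0.08 and -0.33 to 1.12 and 1.06 (exact permutation p = 0.33, adjusted p = 0.50 over the 3 pairs). That of HOXB to HOXD changed by 0.08, with overlapping libraries (exact permutation p = 0.667). Counting every overlapping region these changes were 1.57, -2.24 and -0.67 (exact permutation p = 0.33 each). No pair could pass a threshold of 0.05 with 2 libraries a group.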

How the data were processed

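HAP1 cells with and without RING1A/B gave 8 ChIP-seq libraries of H2AK119ub or H3K27me3, 2 for each mark and genotype, grouped by sample title. Build hg19 and the tools deepTools, bedtools, Picard, SAMtools and Bowtie2 come from the submitters' processing notes. How regions were called and how values were normalized are not given in the sources used here, and library depth is unknown. Fly S2 chromatin as a reference is described for another cell line. Each value is a whole-number score deposited by the authors, a normalized count of a library in a region per the file headers. Totals over all regions ran from 17159 to 3788824. The deposited log2 and p-value columns are the authors' own, computed per region. Starts in the file count from 0, so 1 was added.

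The values were tested as log2(normalized count + 1) with limma 3.58.1 in R 4.3.3 (mean-variance trend, Benjamini-Hochberg adjustment, threshold 0.05), over all regions where at least 2 libraries of the mark reached 10 and the sum reached 15. The 15 HOX regions all passed for both marks. The method was also run on simulated counts with most regions unchanged. That setting differs from these data, where most tested regions were called, so the run is not used as support here. The prior had 107 degrees of freedom for H3K27me3, so its very small p-values rest on a spread shared across regions, and 1.1 for H2AK119ub. Cluster sums and within-library ratios used two-sided exact permutation tests over libraries. Besides every HOX region, the regions named were the nearest flank region on each side of a window and, per cluster, the called flank region with the largest fall and with the largest rise. With the normalized values taken as counts, the squared difference of replicate pairs was 1.36 to 1.38 times that of counting noise. The double-knockout H2AK119ub pair was the exception (0.992 times). Thinned to the totals of that pair, the wild-type pair of the mark gave 1.01, so at totals this low the ratio cannot tell pairs apart. All libraries were kept as separate samples. The windows, lists and members were chosen with earlier results of these data known. Gene order and promoters come from RefSeq tables on GRCh38.p14, and an hg19 annotation was not used here. Alternatives covered scaling, filter, added constant, flank width, overlap rule, replicate block and leaving out each library.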

Additional observations from a re-analysis of the deposited data

How the results depend on the processing

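Changing the added constant, dropping the filter, fitting all 8 libraries together or adding a replicate block kept every HOX call for both marks. Across regions, same-numbered H3K27me3 libraries of the 2 genotypes did not deviate together (correlation 0.011). The H2AK119ub correlation was 0.000, but it cannot show pairing, since most double-knockout values are at or near 0. Shifts of a whole library were removed first, so neither correlation can show a shift shared by same-numbered libraries. With the replicate block 13 regions stayed lower in H3K27me3 and 15 in H2AK119ub.

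Leaving out each replicate in turn gave 0 to 7 HOX regions lower and 0 to 1 higher for H3K27me3, and 7 to 15 lower for H2AK119ub. The 1 higher, HOXC region 1 without double-knockout replicate 2, changed by 0.31 (limma adjusted p = 0.0459). Lost without either double-knockout replicate were HOXB region 3, HOXC region 2 and HOXD regions 2 to 5. Without a wild-type replicate the smallest H3K27me3 adjusted p was 0.0836 or 0.0811.

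Several results depended on the scaling between libraries, and library depth is unknown. Equal totals and median-of-ratios factors moved the median H3K27me3 change of all tested regions to 0.06 and 0.08, and that of H2AK119ub to -1.14 and -1.4. Over all regions, equal totals gave 10907 lower and 9614 higher H3K27me3 calls, against 7338 and 15228. HOXC region 1 then changed by -0.32 and -0.30 in H3K27me3, and HOXB region 4 was called lower (log2 change -0.79 and -0.77). H2AK119ub calls dropped to 8 under both, and HOXD region 3 changed by 0.50 with equal totals (limma adjusted p = 0.692). H3K27me3 left became 13.6% and 13.7% in HOXB, 64.2% and 64.9% in HOXC and 21.7% and 21.9% in HOXD. H2AK119ub left became 48.5% and 32.4%, 46.8% and 29.8%, and 35.6% and 23.1%. Equal totals remove any change of the whole-table total by construction, so the shares under that scaling are relative to the table.

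Counting only the core regions gave 28.5% of H3K27me3 left in HOXB and 11.5% in HOXC, and 0.156% of H2AK119ub in HOXC and 0.696% in HOXD. The cluster-to-flank differences were then -0.24 for HOXB, -3.07 for HOXC and -0.07 for HOXD, and the pairs 1.30 (HOXB to HOXC), 0.08 (HOXB to HOXD) and -1.21 (HOXC to HOXD). With every overlapping region, flanks of 250 and 1000 kb gave -1.41 and -2.27 for HOXB, 0.81 and -0.27 for HOXC and -1.95 and -0.15 for HOXD. The cause of these changes was not tested, beyond which regions each rule counts.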

Other observations

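The authors' deposited table listed 8 of the 15 HOX regions with p under 0.05 and a log2 fold change below -1 for H3K27me3 and 14 for H2AK119ub, where HOXB region 4 had p = 0.0508 in the authors' deposited table. The share of all regions passing these cuts was not taken, so neither count is read as a result about the HOX regions. The 2 regions not called for H3K27me3, HOXB region 4 and HOXC region 1, lay at the HOX13 side of their clusters. HOXC region 1 has only 5.75% of its length inside the window, and HOXC regions 2 and 3, the next ones inside, fell. HOXA region 1 and HOXD region 1, also at the HOX13 side, fell too. The position of the 2 uncalled regions was seen after the values were known and was not tested.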
